A study of Mus musculus with 20 samples.

Results

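The clustered protocadherins are cell adhesion proteins encoded by 3 neighbouring gene clusters, alpha, beta and gamma. They were taken from the expression tables by symbol (Pcdha, Pcdhac, Pcdhb, Pcdhga, Pcdhgb or Pcdhgc followed by a number). This gave 56 genes of the 14700 listed in any table, and all 56 stood in all 4 tables. There were 13 alpha genes, 21 beta genes and 22 gamma genes, the last made up of 12 gamma A, 7 gamma B and 3 gamma C genes. Pcdhac1, Pcdhac2, Pcdhgc3, Pcdhgc4 and Pcdhgc5 are the 5 C-type genes.

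The samples were 20 RNA sequencing libraries of primary cortical neurons from mouse embryos at day 15, treated on day 7 of culture for 12 h. N_WT and N_KO were wild type cultures and cultures without the circular RNA ciRS-7 (gene Cdr1as), kept in normoxia at 5% CO2 and 37 °C with glucose at 25 mM. OGD_WT and OGD_KO were the same genotypes under oxygen and glucose deprivation (OGD), a culture model of ischemia, at 1% oxygen, 5% CO2 and 37 °C without added glucose. Each group had 5 libraries, the strain label C57BL/6N-Cdr1asem1Nikr stood on all of them, wild type included, and N and OGD libraries of a number shared their genotype label and batch. Whether all knockout cultures go back to a single founder is not stated in the labels.

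Clustered protocadherins are cadherin-like proteins of the neuronal surface that bind the same isoform on the facing membrane. Each alpha and gamma transcript joins a variable first exon, with a promoter of its own, to constant exons shared by its cluster, whereas a beta gene is a single coding exon. A neuron uses only some of the alternate promoters, chosen with the help of DNA methylation, the factor CTCF and the cohesin complex, and the resulting combination lets its branches recognise and avoid each other. C-type genes are known for a more even use across neurons, and the gamma genes, Pcdhgc4 above all, for the survival of neurons.

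The genes lie on the plus strand of chromosome 18 (GRCm38, GENCODE annotation). The alpha genes span 36930184 to 37187661, the beta genes 37294812 to 37524479 and the gamma genes 37661793 to 37841873. Alpha and gamma genes overlap in their constant exons, and whether reads of those exons were counted is not stated in the sources used here. The members also resemble each other in their own exons, so reads may be split between them. The share of a gene's own 50-base words that another member also holds was at most 23.43% in alpha (median 13.31%), 11.99% in beta (median 4.82%) and 39.51% in gamma (median 0.81%). The highest was Pcdhga4. Readthrough genes annotated across the cluster cover 2410 of the 2904 own exon bases of Pcdha4, 222 bases of Pcdha6 and 338 bases of Pcdha7. The symbol Pcdha11 stands for more than a single annotated gene, so its values are uncertain.

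Values are log2 CPM, the base-2 logarithm of CPM plus a small constant that was inferred from the values. CPM are read counts brought to a common library size by the authors' scaling. The clipping of extreme values that the deposited tables carry was undone. The constant makes the fold changes of weakly expressed genes slightly smaller. The reads recovered per library numbered 7071506 to 16658617. Cdr1as had 545 to 1912 reads in the wild type libraries and 2 to 16 in the knockout libraries. Over 7226 genes with a mean of at least 4 log2 CPM, the mean deviation of a batch's libraries from their group means had an SD of 0.0188 (batch 1), 0.0414 (batch 2), 0.0257 (batch 3.1), 0.0323 (batch 3.2) and 0.0307 (batch 3.3). Independent libraries of the same spread would give 0.0583, 0.0724, 0.132, 0.0477 and 0.137. The tables thus hold less difference between batches than independent libraries would, which no label explains. In a joint fit of the 20 libraries, groups alone leave 16 residual degrees of freedom, and groups with 5 batches leave 12. The tests of single comparisons used only the libraries of their own groups, so they leave fewer, and they too have no batch term. The p-values of the responses to OGD may therefore be too small. Between genotypes, 256 of 14152 genes had an unadjusted p under 0.05 by limma in normoxia and 253 of 14185 under OGD. For the difference between the responses of the genotypes it was 100 of 13688. These shares are below the 0.05 expected without any difference, so those p-values look too large instead.

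The libraries numbered 1 and 3 stood close to their group mean in all 4 groups. Over the members, the median absolute distance from the mean of the other 4 libraries was 0.06 to 0.08 log2 units for replicate 3, 0.093 to 0.153 for replicate 1 and 0.208 to 0.357 for replicates 2, 4 and 5. Counts are therefore also given below for replicates 2, 4 and 5 alone and with the batches as a term.

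Scaling matters for the direction of small changes. Under the authors' scaling the median log2 fold change of all genes under OGD was -0.03 in WT and 0.00 in KO. When reads were scaled to the library total, it was -0.30 and -0.28. A change is accordingly read against that of all genes, and the members whose call depends on the scaling are named.

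Under OGD most of the alpha genes fell and, on the authors' scaling, a few gamma genes rose. In WT, 15 of the 56 genes were called, 3 higher and 12 lower (limma, Benjamini-Hochberg adjusted p under 0.05 over all genes). That is 26.8% of the members, against 44.3% of all 14235 genes tested, of which 21.6% were called higher and 22.8% lower. In KO, 12 genes were called, 2 higher and 10 lower, which is 21.4% of the members against 40.9% of 14375 genes (21.0% higher and 19.9% lower). The share of members called was thus below that of all genes in both genotypes, a difference that was not tested. With scaling to the library total, no member was called higher (11.4% of all genes in WT and 10.3% in KO), and 27 were called lower in WT (40.4% of all genes) and 24 in KO (36.8%).

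**Figure D1:**
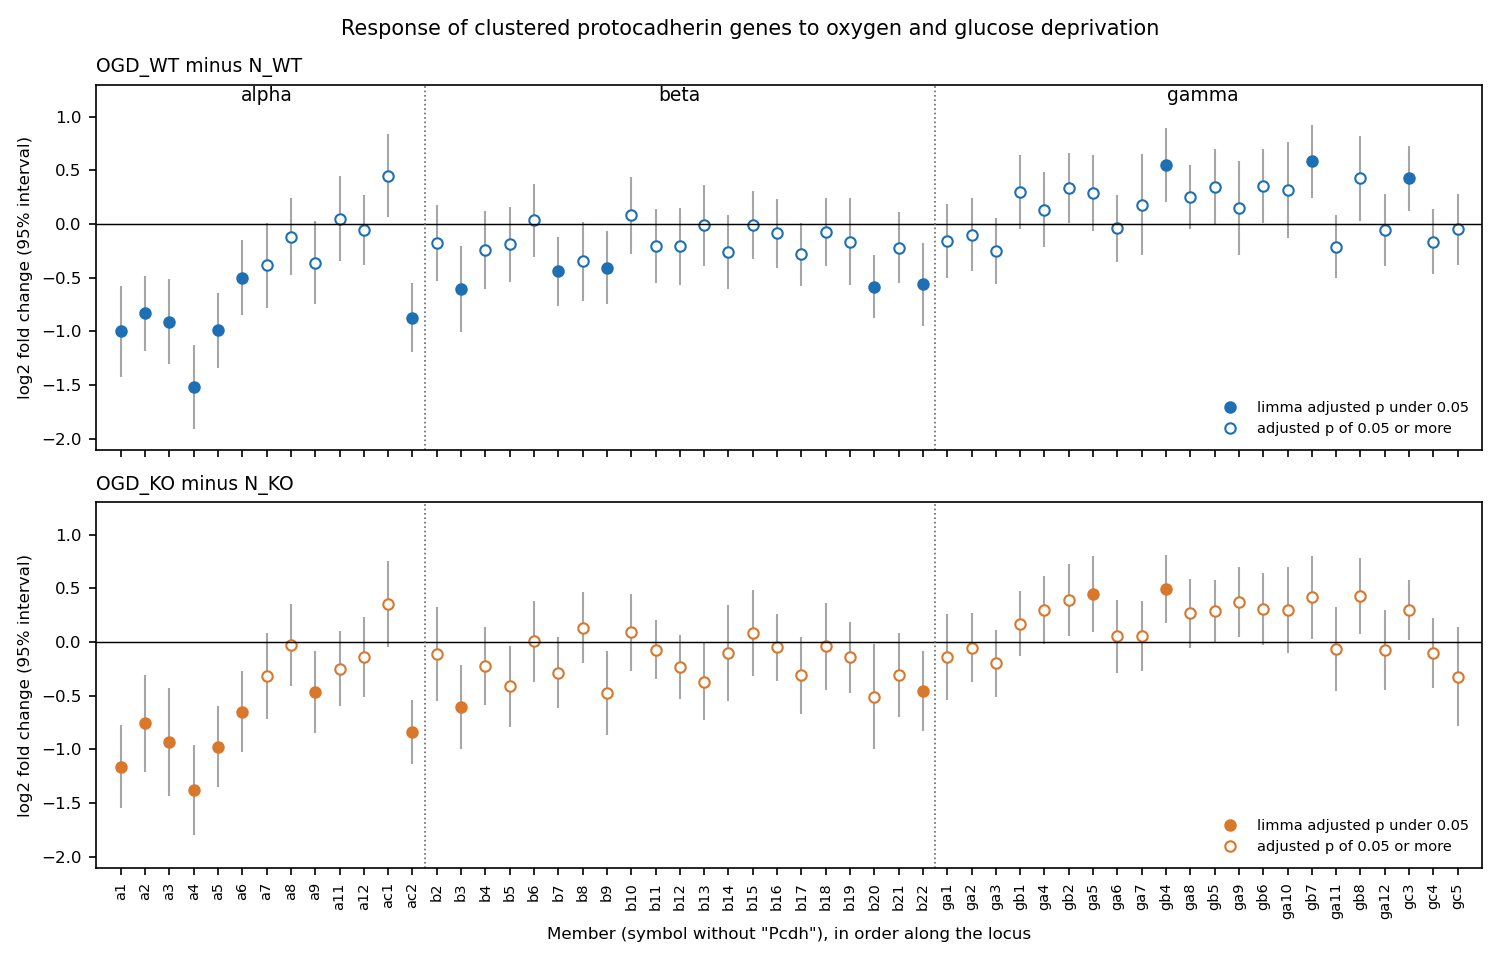
Log2 fold change under OGD of each of the 56 genes in WT and KO, in the order of the genes along chromosome 18, with 95% confidence intervals on the authors' scaling. Pcdha1 to Pcdha6 and Pcdhac2 lie below 0 in both genotypes, and the gamma B genes lie above 0, which for Pcdhgb1 and Pcdhgb5 turns to just below 0 in KO when reads are scaled to the library total.

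Of the 13 alpha genes, 7 fell in WT (Pcdha1 to Pcdha6 and Pcdhac2) and 8 in KO (the same genes and Pcdha9), and none rose. These are 53.8% and 61.5% of the cluster, against 22.8% and 19.9% of all genes called lower. The median log2 fold change of the cluster was -0.50 in WT and -0.65 in KO. These are bulk samples, in which fewer cells of a type and less RNA per cell cannot be told apart. Neuron markers moved with the fall: 6 of 10 fell in each genotype and none rose, with Slc17a7 (a vesicular glutamate transporter) at -1.69 in WT and -1.62 in KO. The summed level of the 10 markers was 4749 to 6137 CPM in N_WT and 3034 to 5758 in OGD_WT, and 5212 to 5414 in N_KO and 3155 to 4592 in OGD_KO. Scaled to the library total, where 40.4% and 36.8% of all genes were called lower, 9 of the 10 were in each genotype. Their part in the fall of the alpha genes was not tested.

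Pcdha4, an alternate alpha isoform, fell the most. It was at 4.43, 4.32, 4.39, 4.90 and 4.48 log2 CPM in the N_WT libraries numbered 1 to 5 and at 2.27, 3.39, 3.25, 2.82 and 3.21 in OGD_WT. In N_KO it was at 4.59, 4.48, 4.55, 4.70 and 4.05, and in OGD_KO at 3.59, 3.38, 2.92, 2.36 and 3.25. Every OGD library lay below every N library in both genotypes. The log2 fold change was -1.52 (SE 0.19, adjusted p = 2.18e-06 by limma) in WT and -1.38 (SE 0.20, adjusted p = 3.19e-05) in KO. These log2 fold changes stand for falls of 65.1% in WT and 61.5% in KO. The gene had 40 to 322 reads per library, and a readthrough gene covers most of its own exon.

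Pcdha1 is the alternate alpha gene at the start of the cluster. Its N_WT libraries stood at 2.87, 2.60, 3.07, 2.82 and 3.28 log2 CPM and its OGD_WT libraries at 1.87, 2.27, 1.81, 2.46 and 1.23. The KO libraries gave 3.18, 3.37, 3.21, 2.78 and 2.62 in normoxia and 1.90, 1.73, 1.64, 1.71 and 2.36 under OGD. All OGD libraries were again the lower ones, and the groups did not overlap. The log2 fold changes were -1.0 (SE 0.20, adjusted p = 0.000486 by limma) in WT and -1.16 (SE 0.18, adjusted p = 7.76e-05) in KO. This is a weakly expressed gene, with 19 to 145 reads per library.

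Pcdha5, a further alternate isoform, had the third largest fall among the genes named by rule. In WT it went from 4.09, 4.36, 4.38, 4.38 and 4.83 log2 CPM in normoxia to 3.58, 3.63, 3.52, 3.47 and 2.89 under OGD. In KO it went from 4.64, 3.99, 4.38, 4.68 and 4.58 to 3.52, 3.92, 3.58, 3.40 and 2.97. Neither genotype had an overlap, although the highest OGD_KO library came close to the lowest N_KO library. The log2 fold changes were -0.99 (SE 0.17, adjusted p = 7.97e-05 by limma) and -0.97 (SE 0.18, adjusted p = 0.000299).

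Pcdha2, Pcdha3 and Pcdha6 also fell, by 0.83, 0.91 and 0.50 on the log2 scale in WT and by 0.76, 0.93 and 0.65 in KO. For Pcdha2 and Pcdha3 the groups did not overlap in WT and did in KO, and for Pcdha6 they overlapped in both. The call of Pcdha6 was lost without replicate 3 or 4 in WT and without replicate 1 in KO, and that of Pcdha9 without replicate 1, 3, 4 or 5. Pcdha9 fell in KO by 0.47 (adjusted p = 0.0465 by limma; 0.109 with the replicate number as a block and 0.0549 by voom), and stood at -0.36 in WT, where it was not called on the authors' scaling. Pcdha7, Pcdha8, Pcdha11 and Pcdha12 were not called in either genotype on the authors' scaling, with log2 fold changes of -0.38, -0.12, 0.05 and -0.05 in WT and -0.32, -0.03, -0.25 and -0.14 in KO. With scaling to the library total, Pcdha7 was called lower in both genotypes (-0.66 and -0.61, adjusted p = 0.00435 and 0.0161 by limma), Pcdha9 also in WT (-0.64, adjusted p = 0.00541) and Pcdha11 in KO (-0.54, adjusted p = 0.0173).

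Among the alternate alpha genes, those at the start of the cluster, Pcdha1 to Pcdha6, fell more than those after them. It was not an even gradient, as Pcdha4, inside this stretch, fell the most. Nor did the order hold for the C-type genes: Pcdhac2, the last gene of the cluster, was at -0.87 in WT and -0.84 in KO. The log2 fold changes of Pcdha1 to Pcdha6 lay between -1.52 and -0.50 in WT and between -1.38 and -0.65 in KO. Those of the 5 measured genes from Pcdha7 to Pcdha12 lay between -0.38 and 0.05 in WT and between -0.47 and -0.03 in KO. Spearman's correlation of fold change with position was 0.87 in WT and 0.82 in KO over the 11 alternate alpha genes, against -0.02 and -0.08 over the 21 beta genes and 0.38 and 0.30 over the 19 gamma A and B genes. These correlations are across neighbouring genes that share exons and libraries, so they are a description, and the split at Pcdha6 was chosen after the values were seen. The share of reads of the alpha cluster assigned to Pcdha1 to Pcdha6, which no scaling affects, was 41.7% ± 2.72 in N_WT, 33.1% ± 4.15 in OGD_WT, 41.3% ± 3.69 in N_KO and 33.5% ± 3.34 in OGD_KO (each with its SD, n = 5). The ranges of this share overlapped in WT and were apart in KO.

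The C-type genes of the alpha cluster differed from each other. Pcdhac2, the last gene of the cluster, was at 5.87, 6.13, 5.93, 5.74 and 5.77 log2 CPM in N_WT and 5.05, 4.61, 4.94, 5.42 and 5.05 in OGD_WT. It was at 5.89, 6.33, 5.91, 5.66 and 5.80 in N_KO and 5.12, 5.03, 5.11, 5.0 and 5.13 in OGD_KO. No OGD library reached the lowest normoxia library of its genotype. The log2 fold change was -0.87 (SE 0.15, adjusted p = 0.000118 by limma) in WT and -0.84 (SE 0.14, adjusted p = 0.000143) in KO. In CPM it fell by 45.3% in WT and fell by 44.2% in KO, with 205 to 1174 reads per library.

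Pcdhac1, directly before it in the cluster, was not called. It stood at 2.60, 2.60, 2.54, 2.18 and 3.08 log2 CPM in N_WT and 2.96, 2.62, 3.16, 2.99 and 3.53 in OGD_WT. In KO the values were 3.11, 2.16, 2.67, 2.59 and 3.35 in normoxia and 2.97, 3.21, 3.25, 3.0 and 3.23 under OGD. The groups overlapped in both genotypes, with log2 fold changes of 0.45 (SE 0.19, adjusted p = 0.0522 by limma) and 0.36 (SE 0.19, adjusted p = 0.143). In WT the call turned on the fit: the adjusted p was 0.0447 by limma with the replicate number as a block and 0.0486 by voom (limma's test on the recovered reads), and it was called without replicate 2 or 5, as it was in KO without replicate 5. Its fold changes shrank to 0.20 (adjusted p = 0.406 by limma) in WT and 0.09 (adjusted p = 0.749) in KO with the library total. Within the alpha cluster, the share of reads assigned to Pcdhac1 was 2.12% ± 0.52 in N_WT, 4.39% ± 0.81 in OGD_WT, 2.39% ± 0.74 in N_KO and 4.62% ± 0.52 in OGD_KO (each with its SD, n = 5). The ranges of this share did not overlap between N and OGD in either genotype. Over the same libraries the share of Pcdhac2 went from 21.7% ± 3.22 to 17.7% ± 1.72 in WT and from 21.8% ± 4.38 to 18.5% ± 1.54 in KO (SD, n = 5), with overlapping ranges.

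**Figure D2:**
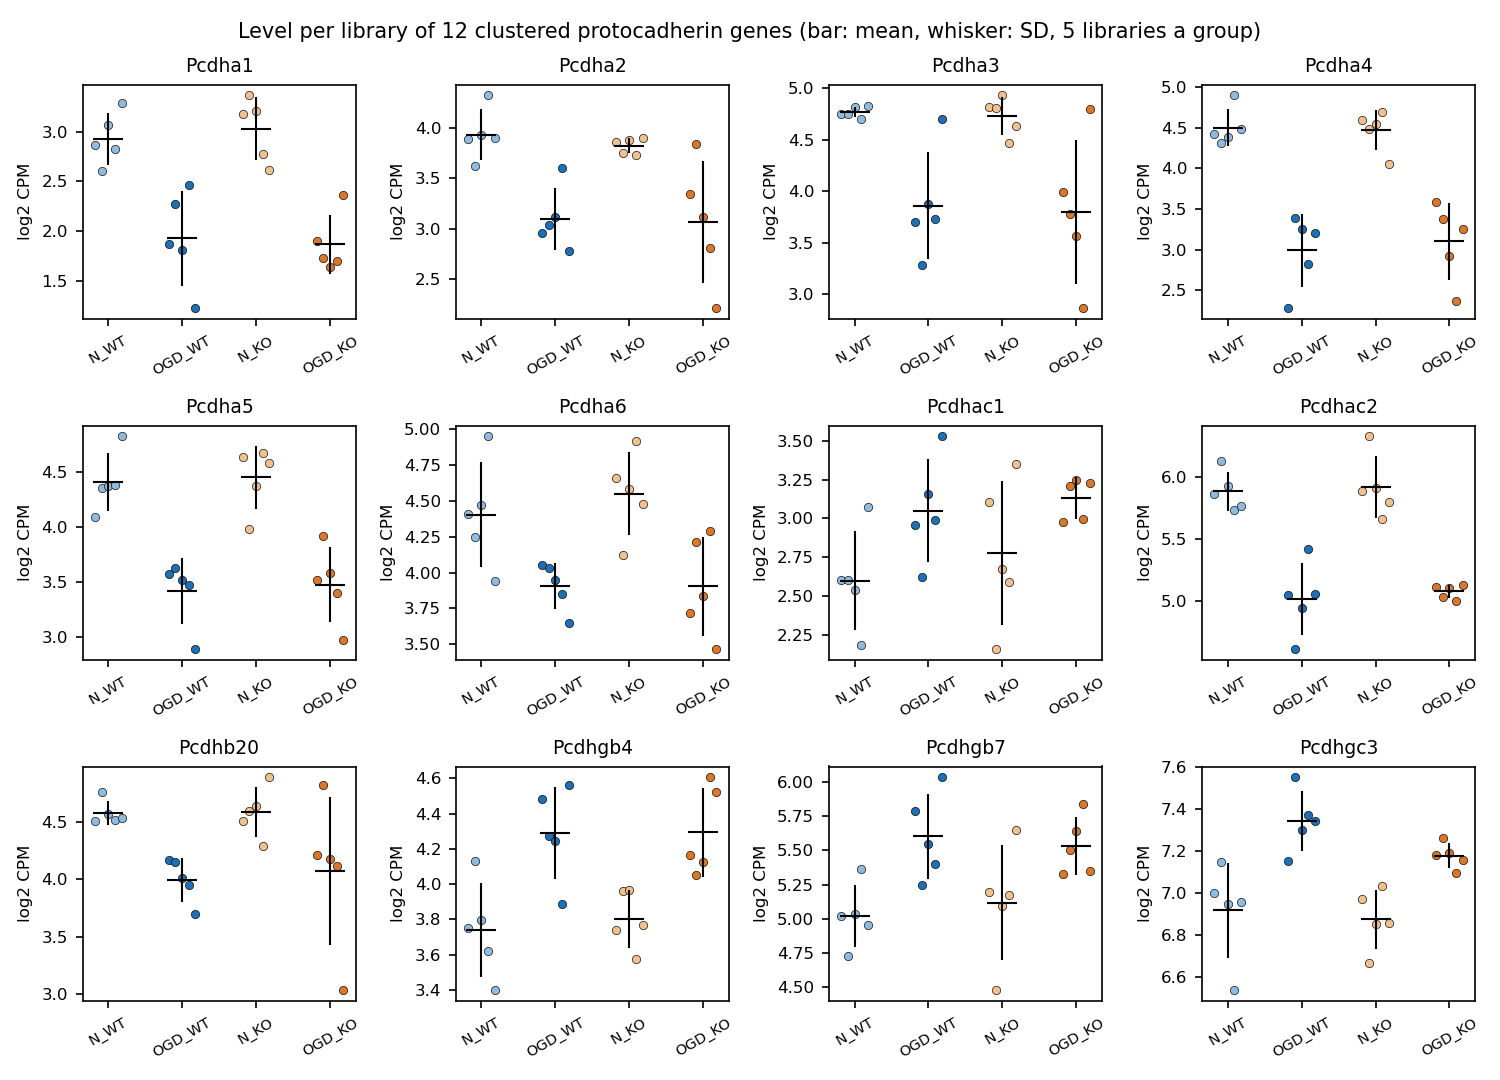
Log2 CPM on the authors' scaling of 12 of the genes, with each of the 5 libraries of N_WT, OGD_WT, N_KO and OGD_KO as a point, the group mean as a bar and the SD as a whisker. The OGD libraries of Pcdha1, Pcdha4, Pcdha5 and Pcdhac2 lie below all normoxia libraries of their genotype, whereas the groups of Pcdhac1 and Pcdhgb7 overlap.

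Without replicates 1 and 3 of each group, Pcdha1, Pcdha3, Pcdha4, Pcdha5 and Pcdhac2 were called lower in WT and Pcdha1 to Pcdha5 and Pcdhac2 in KO, and no other member was called, where 16.9% and 16.3% of all genes were. In WT Pcdha2 then had an adjusted p of 0.051 by limma. The genes called in that fit were called under every alternative tried, scaling to the library total included. With the 5 batches as a term, 12 members were called in WT (3 higher and 9 lower; 34.7% of 13688 genes called) and 9 in KO (1 higher and 8 lower; 33.2% of genes), and Pcdha6 was no longer called in WT.

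The beta genes moved less. Of 21, 5 fell in WT (Pcdhb3, Pcdhb7, Pcdhb9, Pcdhb20 and Pcdhb22) and 2 in KO (Pcdhb3 and Pcdhb22), and none rose. These are 23.8% and 9.5% of the cluster, against 22.8% and 19.9% of all genes called lower. The share was thus near that of all genes in WT and below it in KO. The median log2 fold change was -0.21 in WT and -0.23 in KO, and 19 and 17 of the 21 values were negative. Single genes ranged from -0.60 (Pcdhb3) to 0.08 (Pcdhb10) in WT and from -0.60 (Pcdhb3) to 0.13 (Pcdhb8) in KO. With scaling to the library total, 14 and 12 of the 21 genes were called lower, where 40.4% and 36.8% of all genes were. The calls it added were Pcdhb4, Pcdhb5, Pcdhb11, Pcdhb12, Pcdhb17 and Pcdhb21 in both genotypes, Pcdhb2, Pcdhb8 and Pcdhb14 in WT, and Pcdhb7, Pcdhb9, Pcdhb13 and Pcdhb20 in KO.

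Pcdhb3, a beta isoform near the start of its cluster, had the largest fall. Its values were 2.37, 1.98, 2.32, 2.53 and 2.44 log2 CPM in N_WT and 1.56, 1.14, 1.74, 2.08 and 2.09 in OGD_WT. In N_KO they were 2.30, 2.24, 1.96, 1.74 and 2.06, and in OGD_KO 1.40, 1.33, 1.5, 1.06 and 1.99. The OGD libraries were lower as a group, but some overlapped the normoxia libraries in each genotype. The log2 fold change was -0.60 in both (SE 0.19, adjusted p = 0.014 in WT and 0.0146 in KO by limma). The call was lost without replicate 1 or 3 in WT and without replicate 1 or 2 in KO.

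Pcdhb20 lies near the far end of the beta cluster. It had 4.51, 4.76, 4.57, 4.51 and 4.53 log2 CPM in N_WT and 4.17, 4.15, 4.01, 3.95 and 3.70 in OGD_WT, with no overlap. In N_KO the values were 4.50, 4.59, 4.63, 4.29 and 4.89 and in OGD_KO 4.21, 4.82, 4.17, 4.11 and 3.03, where the spread of the OGD libraries was wide and the groups overlapped. It fell in WT by 0.58 (SE 0.14, adjusted p = 0.00217 by limma), and in KO its log2 fold change of -0.51 (SE 0.23, adjusted p = 0.0865) was not called. It was called lower in KO without replicate 2 (adjusted p = 0.0379 by limma) and on the library total (-0.81, adjusted p = 0.0174).

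Pcdhb22 is the last beta gene. In WT its libraries gave 5.09, 5.56, 5.16, 4.98 and 4.64 log2 CPM in normoxia and 4.66, 4.17, 4.50, 4.19 and 5.12 under OGD. In KO they gave 4.98, 4.95, 5.01, 4.65 and 5.41, then 4.58, 5.08, 4.60, 4.35 and 4.10. The groups overlapped in both genotypes, through replicate 5 in WT and replicate 2 in KO. Its log2 fold changes were -0.56 (SE 0.19, adjusted p = 0.0191 by limma) and -0.46 (SE 0.18, adjusted p = 0.0471). With the replicate number as a block, Pcdhb22 was not called in either genotype (adjusted p = 0.0667 and 0.0862 by limma), nor was it in KO by voom (adjusted p = 0.0526). With the block, Pcdhb7 and Pcdhb9 were not called in WT (adjusted p = 0.0559 and 0.0798 by limma). The calls of these 3 genes were also lost without single replicates: Pcdhb22 without 2, 3 or 4 in WT and 1, 3, 4 or 5 in KO, Pcdhb7 without 1, 2, 3 or 5, and Pcdhb9 without 1, 2 or 3.

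On the authors' scaling, some gamma genes rose: Pcdhgb4, Pcdhgb7 and Pcdhgc3 in WT and Pcdhga5 and Pcdhgb4 in KO, and none fell. These are 13.6% and 9.1% of the cluster, below the 21.6% and 21.0% of all genes called higher. With scaling to the library total, no gamma gene rose, and 4 of 22 in WT (Pcdhga1, Pcdhga3, Pcdhga11 and Pcdhgc4) and 2 in KO (Pcdhga3 and Pcdhgc5) were called lower. On that scaling 11.4% and 10.3% of all genes were called higher and 40.4% and 36.8% lower. The median log2 fold change of the 22 genes was 0.22 in WT and 0.28 in KO on the authors' scaling and -0.06 and -0.01 on the library total, where the median of all genes was -0.30 and -0.28. Under both scalings the median gamma gene lay above the median of all genes. Astrocyte markers (4 of 7 higher and 1 lower in WT, 3 higher in KO) and progenitor and proliferation markers (5 of 8 higher and 1 lower in WT, 5 higher in KO) moved with these rises. The summed astrocyte level was 1042 to 1236 CPM in N_WT, 1522 to 2008 in OGD_WT, 774 to 1409 in N_KO and 1384 to 1931 in OGD_KO. That of the progenitor and proliferation markers was 504 to 634, 891 to 1505, 457 to 755 and 1040 to 1441, in the same order. With the library total these counts were 3 higher and 1 lower (WT) and 2 and 1 (KO) for the astrocyte list and 5 and 1 (WT) and 4 and 1 (KO) for the progenitor list. Of 7 oligodendrocyte lineage markers, 1 rose and 2 fell in WT and 3 rose in KO, with sums of 279 to 347, 321 to 478, 200 to 384 and 270 to 388 CPM. With the library total, 1 rose and 3 fell in WT, and in KO none rose and 3 fell. Endothelial, pericyte and choroid markers had 3 measured genes in WT (1 higher and 1 lower, or 0 and 1 with the library total) and 2 in KO (1 higher on both scalings), and the 6 microglia markers were not analysed here. The part of these cell types in the gamma values was not tested.

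The gamma B genes, alternate isoforms that alternate with gamma A genes along the cluster, were all 7 positive in both genotypes on the authors' scaling, with medians of 0.35 and 0.39. Scaled to the library total, their medians were 0.08 and 0.11, and Pcdhgb1 and Pcdhgb5 turned negative in KO. Of the 12 gamma A genes none was called in WT on the authors' scaling, by limma on log2 CPM or by voom. Over all 14235 genes 44.3% were called by limma. None of the 12 had an unadjusted p under 0.05, where 7315 of all genes did by limma. Their values ran from -0.25 (Pcdhga3) to 0.31 (Pcdhga10). On the library total Pcdhga1, Pcdhga3 and Pcdhga11 were called lower in WT (-0.44, -0.53 and -0.49, adjusted p = 0.0365, 0.00595 and 0.00716 by limma) and Pcdhga3 in KO (-0.49, adjusted p = 0.0227). In KO Pcdhga5 was called (0.45, adjusted p = 0.0422 by limma; 0.054 with the replicate number as a block; lost without replicate 1, 2, 3 or 5 and with the library total), and the others lay between -0.20 and 0.37.

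Pcdhgb4 was the only member called higher in both genotypes on the authors' scaling. It was at 3.75, 4.13, 3.79, 3.62 and 3.40 log2 CPM in N_WT and 4.48, 4.27, 4.24, 3.89 and 4.56 in OGD_WT. In KO it was at 3.74, 3.96, 3.97, 3.58 and 3.77 in normoxia and 4.16, 4.05, 4.13, 4.61 and 4.52 under OGD. The WT groups overlapped through a single OGD library, and the KO groups did not overlap. The log2 fold change was 0.55 (SE 0.16, adjusted p = 0.00948 by limma) in WT and 0.49 (SE 0.15, adjusted p = 0.0141) in KO, and 0.28 (adjusted p = 0.186) and 0.21 (adjusted p = 0.279) on the library total. The call was lost without replicate 1 in WT and without replicate 1 or 4 in KO.

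Pcdhgb7 had the largest rise in WT. There it went from 5.02, 4.72, 5.03, 5.36 and 4.96 log2 CPM to 5.79, 5.25, 5.54, 5.40 and 6.04. In KO it went from 5.19, 4.48, 5.10, 5.17 and 5.65 to 5.33, 5.51, 5.64, 5.84 and 5.35. Most OGD libraries were higher, and the groups overlapped in both genotypes. The log2 fold change was 0.58 (SE 0.16, adjusted p = 0.00639 by limma) in WT and 0.41 (SE 0.18, adjusted p = 0.0761) in KO, and 0.31 (adjusted p = 0.132) and 0.13 (adjusted p = 0.617) on the library total. In KO it was called without replicate 5 (0.59, adjusted p = 0.00412).

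Pcdhgc3, a C-type gene, had the highest level per length of the family. Its N_WT level was 36.0 ± 5.29 CPM per kb of own exon (SD, n = 5), followed by Pcdhga3 (22.8 ± 3.37) and Pcdhac2 (19.5 ± 2.21), and the lowest was Pcdhb13 (0.85). The medians were 8.51 CPM per kb for alpha, 2.33 for beta and 6.93 for gamma. These levels hold only if the reads counted came from the genes' own exons. Per kb of all exons, constant ones included, the medians were 3.98 CPM for alpha, 2.33 for beta and 4.38 for gamma, which turns the order of alpha and gamma, and Pcdhgc3 was again the highest (22.1 ± 3.25, SD, n = 5).

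The Pcdhgc3 libraries stood at 7.00, 7.15, 6.95, 6.54 and 6.96 log2 CPM in N_WT and 7.15, 7.55, 7.30, 7.37 and 7.34 in OGD_WT. In KO they stood at 6.97, 6.67, 6.85, 7.03 and 6.86 in normoxia and 7.18, 7.26, 7.19, 7.10 and 7.16 under OGD. All OGD libraries were above all normoxia libraries of their genotype, in WT by a margin that vanishes when rounded. On the authors' scaling the log2 fold change was 0.43 (SE 0.15, adjusted p = 0.0221 by limma) in WT and 0.30 (SE 0.13, adjusted p = 0.0772) in KO, and on the library total 0.15 (adjusted p = 0.443) and 0.01 (adjusted p = 0.956). The call was lost in WT without replicate 1 or 3 and was made in KO without replicate 4.

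Pcdhgc4, the isoform linked to the survival of interneurons, was at 4.70, 4.57, 4.69, 4.92 and 4.40 log2 CPM in N_WT and 4.53, 4.77, 4.51, 4.23 and 4.43 in OGD_WT. The KO values were 4.72, 5.09, 4.67, 4.50 and 4.31 in normoxia and 4.45, 4.36, 4.51, 4.69 and 4.77 under OGD. The groups overlapped, with log2 fold changes of -0.16 (adjusted p = 0.388 by limma) and -0.10 (adjusted p = 0.63). On the library total it was called lower in WT (-0.44, adjusted p = 0.0223 by limma).

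Pcdhgc5, the last gene of the locus, was at 5.98, 5.37, 5.97, 6.05 and 6.27 log2 CPM in N_WT and 5.84, 5.97, 5.90, 5.65 and 6.04 in OGD_WT. It was at 6.23, 5.23, 6.00, 6.09 and 6.84 in N_KO and 5.64, 6.06, 5.83, 5.87 and 5.37 in OGD_KO. The groups overlapped, and the log2 fold changes of -0.05 (adjusted p = 0.824 by limma) and -0.32 (adjusted p = 0.25) were not called. On the library total it was called lower in KO (-0.62, adjusted p = 0.0386 by limma), as it was on the authors' scaling without replicate 2 (-0.61). The 5 C-type genes therefore had no common response: Pcdhac2 fell under both scalings, and none of the others was called in both genotypes.

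Without overlap of the groups, 1 member was higher in WT (Pcdhgc3; 13.9% of all genes) and 7 were lower (Pcdha1 to Pcdha5, Pcdhac2 and Pcdhb20; 13.1% of all genes). In KO, 3 were higher (Pcdhgb4, Pcdhgb8 and Pcdhgc3; 13.4% of all genes) and 4 lower (Pcdha1, Pcdha4, Pcdha5 and Pcdhac2; 12.4% of all genes). The higher ones are counted on the authors' scaling.

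Summed over its genes, the alpha cluster was at 267, 260, 275, 286 and 277 CPM in the N_WT libraries and 177, 150, 178, 209 and 199 in OGD_WT. In KO the sums were 287, 271, 289, 262 and 287 in normoxia and 180, 201, 170, 178 and 178 under OGD. The groups were well apart in both genotypes. The means fell from 273 ± 10.1 to 182 ± 22.9 CPM in WT and from 279 ± 12.2 to 181 ± 11.5 in KO (SD, n = 5), and from 301 to 165 and from 309 to 164 CPM when scaled to the library total. No p is given for sums over the members.

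The beta sum was 260 ± 16.3 CPM in N_WT and 215 ± 25.6 in OGD_WT, and 253 ± 27.8 in N_KO and 217 ± 34.6 in OGD_KO (SD, n = 5). On the authors' scaling its groups overlapped in both genotypes. On the library total the beta means were 287 and 196 CPM in WT and 280 and 198 in KO. The groups were then apart in WT (265 to 322 and 161 to 239) and overlapped in KO. The gamma sum was 651 ± 16.1 and 742 ± 47.7 CPM in WT and 653 ± 64.2 and 718 ± 37.7 in KO (SD, n = 5), higher under OGD on the authors' scaling, but lower under OGD on the library total (718 and 674 CPM in WT, 723 and 651 in KO). On the authors' scaling its groups were apart in WT and overlapped in KO. On the library total they overlapped in WT (681 to 738 and 608 to 769) and in KO (636 to 817 and 557 to 706). Within the gamma cluster, the gamma B genes went from 153 ± 3.33 to 208 ± 28.5 CPM in WT and from 157 ± 20.7 to 198 ± 10.6 in KO (SD, n = 5) on the authors' scaling. All 56 genes together were at means of 1185 CPM in N_WT, 1139 in OGD_WT, 1185 in N_KO and 1117 in OGD_KO.

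Shares within the family do not depend on the scaling. Alpha reads were 23% ± 0.72 of all clustered protocadherin reads in N_WT and 16% ± 1.67 in OGD_WT, and 23.6% ± 1.36 in N_KO and 16.2% ± 0.51 in OGD_KO (SD, n = 5). Gamma reads were 55.0% ± 0.76 and 65.1% ± 1.0 in WT and 55.1% ± 1.66 and 64.4% ± 1.79 in KO (SD, n = 5). The ranges of these shares did not overlap between N and OGD, so the makeup of the family moved from alpha towards gamma in both genotypes. Beta reads made up 22.0% ± 1.17 and 18.9% ± 1.13 in WT, without overlap, and 21.3% ± 0.97 and 19.4% ± 1.85 in KO, with overlap (SD, n = 5). Within gamma, the gamma A share was 44.4% ± 2.86 in N_WT and 39.1% ± 1.38 in OGD_WT, and 43.4% ± 2.27 in N_KO and 41.5% ± 0.70 in OGD_KO (SD, n = 5), with ranges apart in WT only.

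**Figure D3:**
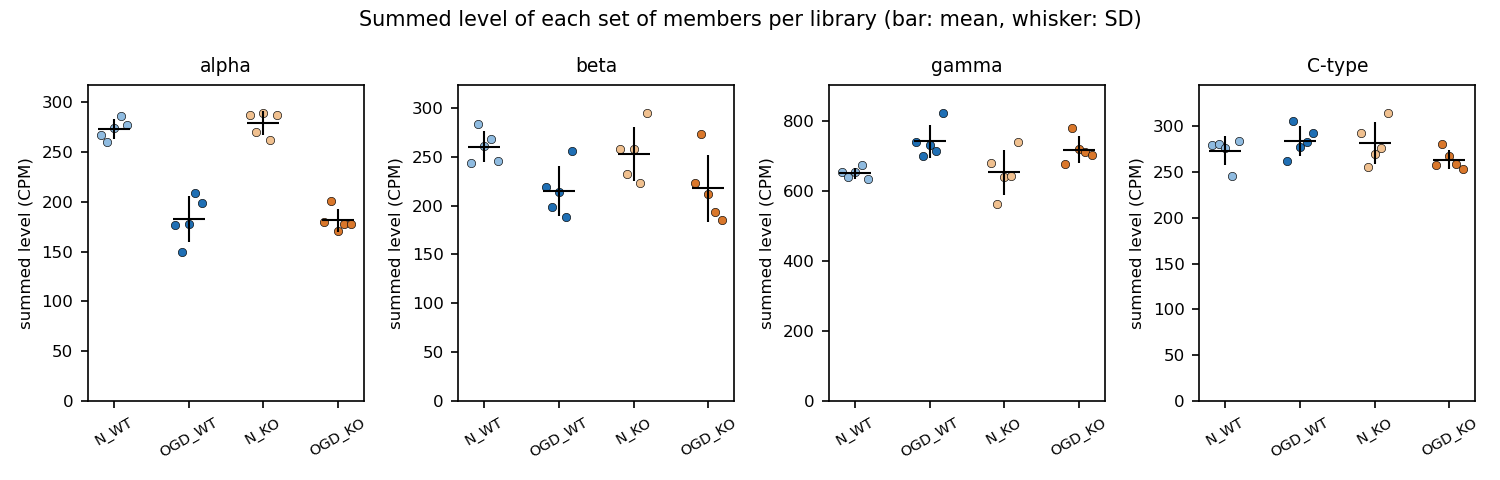
Summed CPM of the alpha, beta and gamma clusters and of the 5 C-type genes in each library (points), with the group mean (bar) and SD (whisker), on the authors' scaling. The alpha sums of all OGD libraries lie below those of all normoxia libraries. The mean gamma sums are higher under OGD on this scaling. They are lower when reads are scaled to the library total, where the ranges of N and OGD overlap in both genotypes.

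The responses of the genotypes resembled each other gene by gene. They come from separate libraries, which share processing and batches 1, 3.1 and 3.3. Batch 2 held only KO libraries and batch 3.2 only WT libraries, in each case those of replicate 3. Across the 56 genes Pearson's r between the 2 sets of log2 fold changes was 0.95, Spearman's rho was 0.89, and 52 genes had the same sign. These figures describe related genes and carry no p. Of the 17 genes called in either genotype, 10 were called in both, all in the same direction, 5 in WT only and 2 in KO only. The median gap between the fold changes was 0.07 log2 units, and the largest was 0.48 (Pcdhb8).

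The difference of the responses was tested itself, with an interaction term of genotype and treatment over 13688 genes. For this term reads were scaled to the library total and not by the authors' scaling. No member was called (0.0% of all genes were), and none had an unadjusted p under 0.05, where 100 of the 13688 genes did. Voom called none either, also with none at an unadjusted p under 0.05 (156 of all genes). The values ran from -0.40 (Pcdhb13) to 0.49 (Pcdhb8), and for 55 of 56 genes the 95% confidence interval lay within a log2 difference of 1 in either direction. For Pcdhb8 it reached from -0.06 to 1.04. A call such as that of Pcdhb20 in WT alone is thus no sign of a difference between genotypes.

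**Figure D4:**
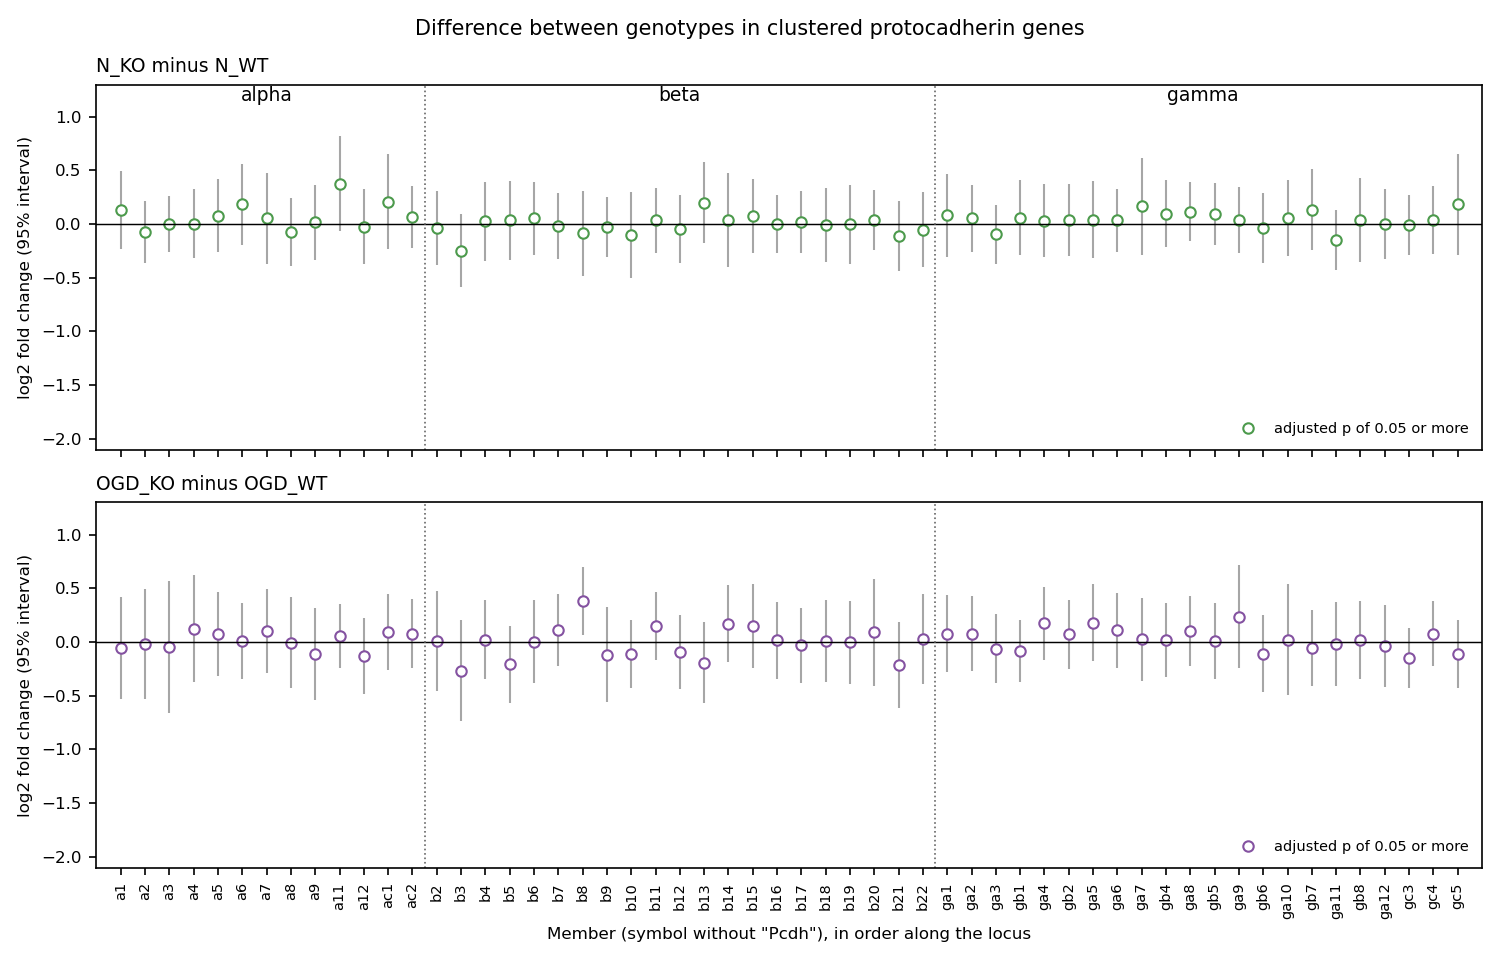
Log2 fold change of KO against WT of each of the 56 genes in normoxia and under OGD, with 95% confidence intervals. No gene was called, and all 56 intervals lie within a log2 difference of 1 in both conditions.

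Loss of ciRS-7 left no called difference in these genes. Genotype was partly tied to batch, so their effects cannot be fully told apart. Replicate 3 was in batch 3.2 in WT and batch 2 in KO. Replicates 2 and 4 were in batch 3.3 in WT and 3.1 in KO, and replicate 5 was in 3.1 in WT and 3.3 in KO. In normoxia (N_KO against N_WT) no member was called by limma, where 0.0353% of all 14152 genes were. None had an unadjusted p under 0.05, where 256 of all 14152 genes did. The same held with voom (247 of all genes), which called none of the members. Such a p was rare among all genes, so its absence here is not particular to the members. The fold changes ranged from -0.25 (Pcdhb3) to 0.38 (Pcdha11), and the 95% confidence intervals of all 56 genes lay within a log2 difference of 1 and those of 47 within 0.5. Smaller differences lie within these intervals.

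Under OGD (OGD_KO against OGD_WT) no member was called by limma (0.0282% of 14185 genes were) or voom. A single gene had an unadjusted p under 0.05 with each of them, where 253 of all genes did by limma and 266 by voom. Pcdhb8, a beta isoform, was at 2.47, 2.36, 2.05, 2.46 and 2.19 log2 CPM in OGD_WT and 2.72, 2.63, 2.66, 2.58 and 2.77 in OGD_KO. The groups did not overlap, as in 0.226% of all genes in this direction. Its log2 fold change of 0.38 (SE 0.15, adjusted p = 1.0 by limma) was named after its values were seen. All 56 intervals lay within a log2 difference of 1 and 38 within 0.5.

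Other genes of the pathway were taken from lists written from general knowledge. Their counts are to be read against those of all genes, of which 21.6% were called higher and 22.8% lower in WT. In KO these shares were 21.0% and 19.9%. On the library total they were 11.4% and 40.4% in WT and 10.3% and 36.8% in KO. Among 22 regulators of promoter choice and chromatin at the clusters, 7 rose in WT, where none fell, and 8 rose in KO. When scaled to the library total, 4 rose and 3 fell in WT, and 2 rose and 3 fell in KO. Rest, a repressor of neuronal genes, had log2 fold changes of 1.17 and 0.94 on the authors' scaling, and Stag2, a cohesin subunit, of 0.92 and 0.88. Ctcf itself was not called (0.32 and 0.35).

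Of 24 genes for the cleavage and signalling of the proteins, 5 rose and 6 fell in WT and 3 rose and 6 fell in KO, and on the library total 1 rose in each genotype while 11 and 8 fell. Psenen, a subunit of the gamma-secretase that cuts protocadherins, was at 0.94 and 0.98, and Cyfip1, of the WAVE complex, was at 0.45 and 0.50, calls that were lost on the library total (0.18 and 0.21). Ret, a receptor tyrosine kinase that associates with clustered protocadherins, was at -1.53 and -1.19, and Ptk2b, a kinase that protocadherins restrain, was at -1.20 and -1.37. Adam10, the sheddase that makes the first cut, fell by 0.53 and 0.42.

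The related adhesion families also changed in both directions. Of 11 non-clustered protocadherins, 3 rose and 5 fell in WT and 2 rose and 5 fell in KO, and on the library total 1 rose and 6 fell in each. Pcdh8 was at 0.74 and 0.68, Pcdh1 at -0.87 and -0.75 and Pcdh20 at -0.86 and -0.82. Of 17 cadherins and catenins, 5 rose and 7 fell in WT and 3 rose and 6 fell in KO (2 rose and 9 fell in each on the library total). Ctnna1, which links cadherins to actin, was at 1.25 and 1.1, and Cdh9 and Cdh11, type II cadherins, were at -1.30 and -1.28 in WT and -0.90 and -1.13 in KO.

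Of the genes beside or between the clusters, which share the chromosome but not the family, 16 were measured. On the authors' scaling 1 rose and 3 fell in each genotype, and 12 were not called. Most of all genes were not called either, with 44.3% called in WT and 40.9% in KO. On the library total 7 of the 16 fell in each, none rose in WT and 1 rose in KO. Slc25a2, between the beta and gamma clusters, was at 0.53 (adjusted p = 0.0445 by limma) in WT and 0.92 (adjusted p = 0.0024) in KO, where the WT rise was not called on the library total (0.38, adjusted p = 0.221). Fchsd1 fell by 0.68 and 0.67. In the comparisons of genotypes, no gene of these 5 lists was called by limma, with 0 at an unadjusted p under 0.05 in normoxia and 1 under OGD. Of all genes, 256 of 14152 and 253 of 14185 had such a p.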

How the data were processed

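Total RNA of the 20 samples was extracted with TRIzol, and a stranded total RNA kit gave the libraries, per the labels' protocols. The authors deposited 4 tables, 1 per comparison, of log2 CPM for 14152 to 14375 gene symbols. The genome build is mm10, per the submitters' processing notes, and the aligner, counting, filter and scaling are not given in the sources used here. Within each gene and group the deposited values had their extremes drawn to the 10th and 90th percentile, inferred from the values. Undoing this (weights 0.6 and 0.4) gave whole reads for at least 99.909% of values, against 45.274% to 92.768% as deposited (tolerance 0.05 reads, genes of up to 500 reads). Reads per library numbered 7071506 to 16658617.

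Each comparison was fitted on all genes of its table with limma 3.58.1 (R 4.3.3, trend), without a block. A gene was called where its two-sided p, adjusted by Benjamini and Hochberg over all genes, was under 0.05. The interaction used the 13688 genes in all tables, joint log2 CPM scaled to the library total (prior count 2) and duplicateCorrelation by numbered genotype label (-0.169). On the recovered reads, voom (in limma) called 6344 genes under OGD in WT and 5872 in KO, against 6313 and 5884 from the log2 CPM. The code was tested on simulated data.

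N and OGD libraries of a number share a numbered genotype label and a batch, and whether they come from the same culture or animal is not stated in the labels. Deviations from group means of these pairs correlated at -0.71 to 0.03 in WT and -0.79 to -0.07 in KO. Gene models are from GENCODE. The members and lists were chosen with earlier results of these data known. Genes named by library were the 3 largest called rises and falls per cluster in WT and the C-type genes. For other lists the rule was the largest 2 called in each direction, which was not followed throughout. Cdh4, called higher in both genotypes, and Tmco6, called lower in WT, are among those left out. A gene of the regulator list is not reported here. Stag2, Ctcf, Adam10 and Pcdhb8 aside from that rule were chosen for their role or after their values were seen. Cell type lists covered neurons, astrocytes, oligodendrocyte lineage, microglia, endothelial, pericyte and choroid cells, and progenitors. Alternatives changed the clipping, test, scaling, prior count, filter, block, batches and libraries. Voom, scaling to the library total, replicates 2, 4 and 5 alone and the term of 5 batches were added after seeing the data.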

Additional observations from a re-analysis of the deposited data

Results flagged for a closer look

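In 13 of 240 groups of 5 libraries (the 56 genes and the 4 sums), 1 library stood apart from the other 4 by more than Dixon's limit of 0.71. Chance gives about 12, and all were libraries numbered 2, 4 or 5. In N_WT, replicate 4 was high for Pcdha4 (4.90 log2 CPM, others 4.32 to 4.48) and Pcdhga10 (4.90, others 4.27 to 4.40) and low for Pcdhga8 (4.28, others 4.58 to 4.69) and the C-type sum (245 CPM, others 276 to 284). Replicate 2 was high for Pcdhb20 (4.76, others 4.51 to 4.57). In OGD_WT, Pcdha5 was low in replicate 5 (2.89, others 3.47 to 3.63), Pcdhgb5 was low in replicate 2 (4.84, others 5.43 to 5.64), and Pcdhga11 was high in replicate 4 (5.31, others 4.78 to 4.92). In N_KO, replicate 2 was low for Pcdhb11 (3.35, others 3.59 to 3.61), Pcdhga6 (3.74, others 4.14 to 4.23) and Pcdhgb8 (2.62, others 3.35 to 3.49), and replicate 4 was low for Pcdhb5 (2.06, others 2.63 to 2.86). In OGD_KO, Pcdhga6 was high in replicate 2 (4.67, others 3.90 to 4.12).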

How the results depend on the processing

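Of the members called under OGD, 15 in WT and 12 in KO, keeping the clipping gave 24 (10 higher and 14 lower) and 25 (9 and 16). Over all genes it called 8280 of 14235 in WT and 8024 of 14375 in KO, against 6313 and 5884 in the main fit. Leaving out each replicate in turn gave 9 to 19 in WT, lowest without replicate 3, and 6 to 16 in KO, lowest without replicate 1. The counts over all genes were then 4313 to 6993 in WT and 4025 to 5923 in KO. Batch 3 alone gave 10 and 6, replicates 2, 4 and 5 alone 5 and 6, and the library total 27 and 24. Over all genes these called 4916 and 2341, 2411 and 2341, and 7369 and 6768. Batch 3 alone is the same fit as that without replicate 1 in WT and as replicates 2, 4 and 5 alone in KO. With the replicate block, 13 (4 higher and 9 lower) and 9 were called, where 5681 and 4829 of all genes were. Apart from Pcdhb7, Pcdhb9, Pcdhb22 and Pcdhac1 in WT and Pcdha9, Pcdhb22 and Pcdhga5 in KO, the block changed no call. Voom, TMM scaling, both prior counts and the filter gave 15 to 16 in WT and 12 to 14 in KO. Over all genes they called 5810 to 6344 and 5382 to 5885. The planned count tests on the recovered reads were not run. No member was called between genotypes or in the interaction in any setting, and no called member changed sign. Without 1 replicate, uncalled values ran from -0.21 to 0.038 (Pcdhgc5 in WT, positive without replicate 4), -0.24 to 0.054 (Pcdhgc4 in KO, positive without replicate 2) and -0.21 to 0.036 (Pcdhb8 in KO against WT in normoxia, positive without N_WT replicate 4). On the library total the alpha sums were 301, 165, 309 and 164 CPM in N_WT, OGD_WT, N_KO and OGD_KO. In the same order the beta sums were 287, 196, 280 and 198 CPM. The gamma sums were 718, 674, 723 and 651 and the C-type sums 301, 258, 312 and 239 CPM. The cause of these shifts was not tested. For Pcdha1, with 19 to 145 reads per library, counting error is larger than for Pcdhgc3, with 846 to 2183.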

Other observations

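Replicates 1 and 3 of a group resembled each other more than other libraries did, over all genes. The chi-square of their recovered reads per gene, where sampling noise alone gives about 1, was 3.15 to 6.54 in the 4 groups, against 13.9 to 97.3 in the 36 other pairs of libraries within groups. They differed by more than sampling noise and were counted as separate libraries.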
